A study of Mus musculus with 111 samples.

Results

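The nuclear genes of oxidative phosphorylation were examined in RNA-seq libraries of the mouse tuberomammillary nucleus (TMN), a posterior hypothalamic region where the neurons that make histamine lie. Gene names were matched to the prefixes Ndufa, Ndufb, Ndufc, Ndufs, Ndufv, Uqcr, Cox4 to Cox8 and Atp5, and to Sdha, Sdhb, Sdhc and Sdhd. Of 98 matching names, 6 pseudogenes were left out, and 92 of 54087 gene rows remained. They comprised 36 subunits of complex I, 7 complex I assembly factors (the Ndufaf genes), the 4 subunits of complex II, 8 genes of complex III, 20 of complex IV and 17 of complex V.

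These genes make most of the machinery with which mitochondria turn nutrients into ATP. Complexes I and II take electrons from NADH and succinate, complex III hands them to cytochrome c, complex IV passes them to oxygen, and complex V, the ATP synthase, makes ATP from the proton gradient that the others build. Neurons depend on this pathway for the ion pumping behind electrical activity. A few subunits are instead encoded by the mitochondrial genome, and some complex IV subunits exist as pairs, a general form and a form known from heart and skeletal muscle, lung or testis.

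The TMN of adult C57BL/6 mice was transduced with an adeno-associated virus (AAV) of 1 of 3 kinds, and tissue was taken 21 days later at zeitgeber time (ZT) 0, 4, 8, 12, 16 or 20 h, where lights came on at ZT0 and the active phase began at ZT12. The GFP virus was an empty vector, the H3.3 virus expressed the wild-type histone H3.3, and the Q5A virus expressed H3.3(Q5A), in which glutamine 5 is replaced by alanine so that no monoamine can be attached there. All 3 vectors also expressed GFP, and the methods name no cell type to which they were restricted. The animals kept their own H3.3 genes, and the tissue was dissected by its GFP signal. After 2 identical Q5A libraries at ZT4 had been merged, there were 110 libraries, 1 animal each (32 GFP, 39 H3.3, 39 Q5A), in 18 groups of 4 to 8 from 3 cohorts. GFP and H3.3 libraries together served as the 71 controls. Cohort 1 held 78 libraries and cohort 2 held 24, of which 4 were GFP. Cohort 3 held 8 libraries and no GFP.

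Gene rows held 673306 to 3375352 reads per library, which was 3.49 to 5.64% of the uniquely placed reads. The kit reads the strand opposite to the mRNA, whereas the counting kept reads on the gene's own strand. Most reads of a gene's mRNA were therefore not in its own row, and where an exon of another gene lies opposite they could be in that gene's row. The values below are the reads assigned to each gene's row, not mRNA levels, and reads of overlapping opposite genes cannot be told apart. The same holds for cell type markers: Hdc, which makes histamine, had a mean of 7.51 reads (0 to 53, with 11 libraries at 0), while Slc18a2, the vesicular monoamine transporter, had 93.2, the neuronal gene Snap25 333, the myelin gene Mbp 1225 and the neighbouring lateral hypothalamic gene Pmch 107 (0 to 1205). In such bulk tissue, fewer cells of a type and less RNA per cell cannot be told apart.

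Promoter sequence was read for 73 of the 92 genes (78 windows of 300 bases, 250 before to 50 after a RefSeq transcript start, GRCm38.p6), because the factors NRF1 and GABP are known activators of respiratory chain genes and CLOCK and BMAL1 act through E-boxes. On both strands, the NRF1 motif, which is GCGCA followed directly by TGCGC, stood in 8.97% of the windows of these genes and 0.971% of all 32851 windows. CCGGAAG (GABP) stood in 21.8% against 8.86%, and CACGTG (E-box) in 7.69% against 7.15%. Counted by gene, the shares were 9.59% against 1.07% (NRF1), 23.3% against 9.93% (GABP) and 6.85% against 8.09% (E-box). For the E-box the direction thus depended on the way of counting. The NRF1 motif and the E-box read the same on both strands, and a base could count for more than 1 motif. A match describes the sequence and does not show that a factor binds there. The following stretches, written 5′ to 3′ on the gene's strand with the motif in capitals, belong to genes whose rows are described below.

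Cox6a1, NRF1 (chr5:115349101-115349130, minus strand): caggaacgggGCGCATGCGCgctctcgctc
Atp5k, NRF1 (chr5:108434430-108434459, minus strand): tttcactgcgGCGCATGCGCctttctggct
Ndufa11, NRF1 (chr17:56717692-56717721, plus strand): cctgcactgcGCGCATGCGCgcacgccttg
Cox6b1, GABP (chr7:30626126-30626152, minus strand): cctctcgcagCTTCCGGccagtcggaa
Sdhd, GABP (chr9:50603879-50603905, minus strand): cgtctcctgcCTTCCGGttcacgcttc
Atp5j, GABP (chr16:84835021-84835047, minus strand): gctgagggacCCGGAAGcacttaccct
Ndufs3, GABP (chr2:90904732-90904758, minus strand): ccgcgtccgcCCGGAAGaagagtcact
Ndufa7, E-box (chr17:33824490-33824515, plus strand): ggagaggagtCACGTGagcaggggat

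Gabpa, the DNA-binding subunit of GABP, lies opposite one of these genes, Atp5j, and the exons of the 2 genes overlap by 397 bases.

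The rows of the 92 genes held 1182 to 12360 reads per library (median 2530), or 0.125 to 0.457% of the gene reads. A mean of at least 10 reads was reached by 60 of them, 6 were under 1 read, and Cox7b2 and Cox8c were at 0 in all 110 libraries. Per kilobase of exon, complex I subunits had a median of 12.5 reads per library, complex II 8.89 (2.99 to 20.4), complex III 12.2 (5.46 to 44.5), complex IV 9.41 (0 to 71.4) and complex V 15.1 (0.205 to 72.8). Complex I assembly factors, which help to build the complex and are not part of it, were lower, with a median of 1.44 (1.095 to 4.08). Over all 13890 annotated rows with at least 1 read per library, the median was 2.65 reads per kilobase.

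The highest row per kilobase was that of Atp5f1 in complex V (72.8; the b subunit of the ATP synthase stalk), followed by Cox6a1 in complex IV (71.4). Uqcrh, the hinge protein of complex III, had 44.5, Sdha, the flavoprotein of complex II, 20.4 and the assembly factor Ndufaf3 4.08. Atp5f1 had 95 to 511 reads per library (median 294) and Cox6c of complex IV 69 to 395 (median 159). The row of Atp5b, the catalytic beta subunit, ran from 77 to 1122 reads (median 163), and that of Atp5a1, the alpha subunit, from 34 to 888 (median 103). The spread after normalisation to library size was narrower for Atp5f1 (286.2 ± 43.2, SD, n = 110) and Cox6c (158.2 ± 30.5) than for Atp5b (189.1 ± 74.1) and Atp5a1 (117.3 ± 44.9).

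**Figure D1:**
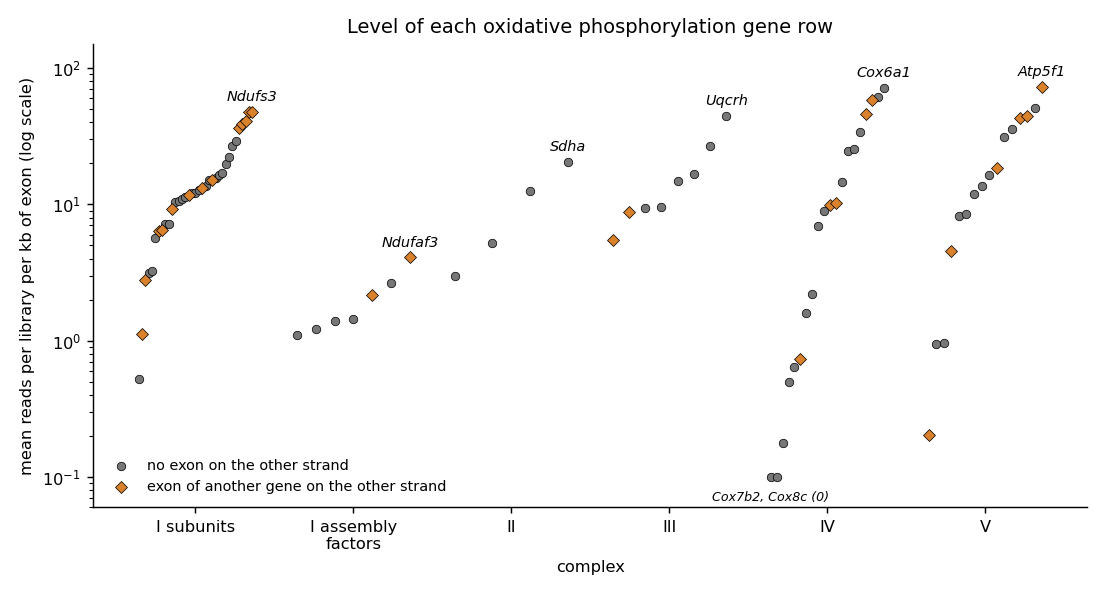
Mean reads per library per kilobase of exon (log scale) for each gene's row, by complex, with circles for genes without and diamonds for genes with an exon of another gene on the opposite strand. The ranges of both kinds overlap in complexes I and V. Rows without an opposite exon reach 29.2 in complex I (Ndufa8) and 50.6 in complex V (Atp5b), and some rows with one lie higher. Cox7b2 and Cox8c, at 0, are drawn at the bottom.

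Among the paired complex IV subunits, the general form had the higher row per kilobase in every pair that could be compared. Cox4i1 had 58.2 reads per kilobase against 0.496 for Cox4i2, the form known from lung. Cox6b1 had 60.9 against 0.640 for the testis form Cox6b2, and Cox8a had 34.2 against 0.177 for the muscle form Cox8b. Cox7a2 had 14.6 against 2.21 for the muscle form Cox7a1. The smallest gap was that of Cox6a1 (71.4) and the muscle form Cox6a2 (9.89). Cox4i2, Cox6b2, Cox7a1 and Cox8b were at 0 in 78, 65, 43 and 105 of the 110 libraries, whereas Cox6a2 had 0 to 21 reads and was at 0 in 3. The testis forms Cox7b2 and Cox8c were not detected in any library, while Cox7b had a mean of 31.1 reads. Cox6a2 is also a gene with an opposite neighbour, the integrin gene Itgad (70 shared bases), whose own row had a mean of 0.927 reads.

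Of the 91 genes with a position in the annotation, 29 had an exon that overlaps an exon on the other strand. These rows held 50.9% of all the reads in the 92 rows, and their median per kilobase was 11.7 against 11.1 for the 62 without such an overlap. Over all annotated rows the 2 medians were 5.82 and 1.97. For 21 of the genes the opposite gene had a row of its own, giving 22 pairs, and in 12 the opposite row was the higher in mean.

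Cox4i1 (90.2 reads) and Emc8 (2187), Uqcrc2 (22.4) and Pdzd9 (1358), and Ndufb5 (13.95) and Mrpl47 (1009) were the pairs with the most reads in the opposite row, which was higher in all 110 libraries. The overlaps were 154, 504 and 616 bases. Ndufs1 (74.1) lies opposite Ino80dos (971), Atp5j (57.8) opposite Gabpa (477), Atp5d (86.0) opposite Cbarp (380), Ndufs3 (104) opposite Kbtbd4 (309) and Ndufb11 (35.4) opposite Rbm10 (120), and there too the opposite row was higher in all 110. Ndufb2 (35.6) and Braf (56.4), Ndufaf3 (7.4) and Impdh2 (10.6), and Ndufa4l2 (0.8) and Shmt2 (6.56) were less one-sided, with the opposite row higher in 101, 79 and 106 libraries. Ndufa13 (50.8) and Tssk6 (56.1) were close, with the Tssk6 row higher in 68.

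The order was the other way round for the complex V subunits Atp5f1 (299 reads) against Wdr77 (3.36) and Atp5a1 (134) against Haus1 (1.01), and for Cox6c (165) against Vps13b (31.7). In none of the 110 libraries was the opposite row of these 3 genes the higher. Ndufa2 (27.3) against Tmco6 (17.9), Ndufa3 (37.1) against Tfpt (9.17), Ndufa11 (12.8) against Vmac (3.99) and Ndufs6 (13.5) against Mrpl36 (2.3) also had the higher mean in the row of the complex I gene. Ndufs1 has a second neighbour, Eef1b2 (26.8), with 9 shared bases. On the same strand, Atp5g2, Atp5o, Ndufb2, Ndufb8 and Ndufb9 overlap Mir688, Donson, Gm42420, Gm20538 and Gm49356, and reads in such stretches are not assigned to either gene.

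**Figure D2:**
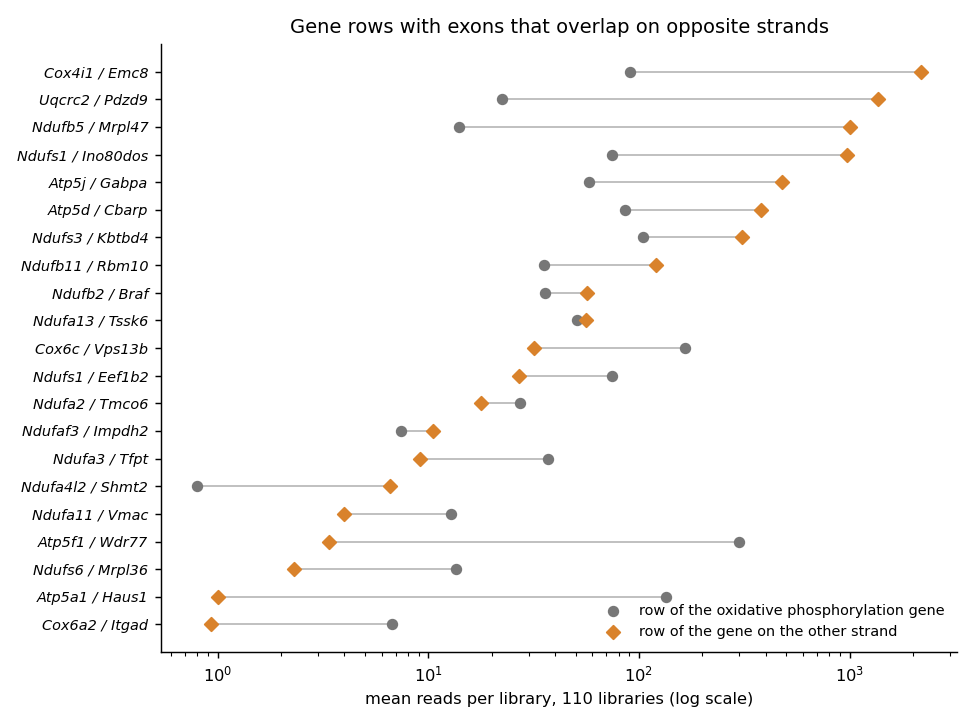
Mean reads per library (log scale) of each gene's row and of the row of the gene on the opposite strand, for 21 of the pairs. In 12 of them the opposite row is the higher, led by Emc8 opposite Cox4i1.

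The summed share of the 92 rows moved with the library more than with the virus. Its median was 0.181% of gene reads in GFP, 0.181% in H3.3 and 0.189% in Q5A libraries. In the 10 libraries with the most reads in gene rows (4.46 to 5.64% of the uniquely placed reads) the median share was 0.343% (0.179 to 0.457), and in the other 100 (3.49 to 4.37%) it was 0.180% (0.125 to 0.297). Cohort 3 stood above the others, with a median member share of 0.250% and 4.53% of reads in gene rows, against 0.181% and 3.91% in cohort 1 and 0.175% and 4.02% in cohort 2. No test was run on these sets of libraries, which were formed from the data.

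Between those 10 and the other 100 libraries, 40 of the 60 rows with at least 10 reads had a ratio of means above 2 and 50 above 1.5 (median 2.33, from 0.798 to 3.86). Over all 9542 rows with at least 10 reads the median ratio was 1.19, and 16.6% were above 2. Among the genes with the lowest ratios were Atp5s (0.798), Ndufs3 (0.807), Atp5f1 (0.857), Cox6c (0.995), Ndufb2 (1.02), Ndufs1 (1.15), Atp5j (1.35), Ndufa3 (1.47) and Atp5d (1.48), which are given because their ratios are low. Apart from Atp5s, each of these has an exon of another gene on the opposite strand. The highest ratios, those of Atp5o (3.86), Ndufb5 (3.19) and Ndufa9 (3.08), also belong to genes with such an exon.

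**Figure D3:**
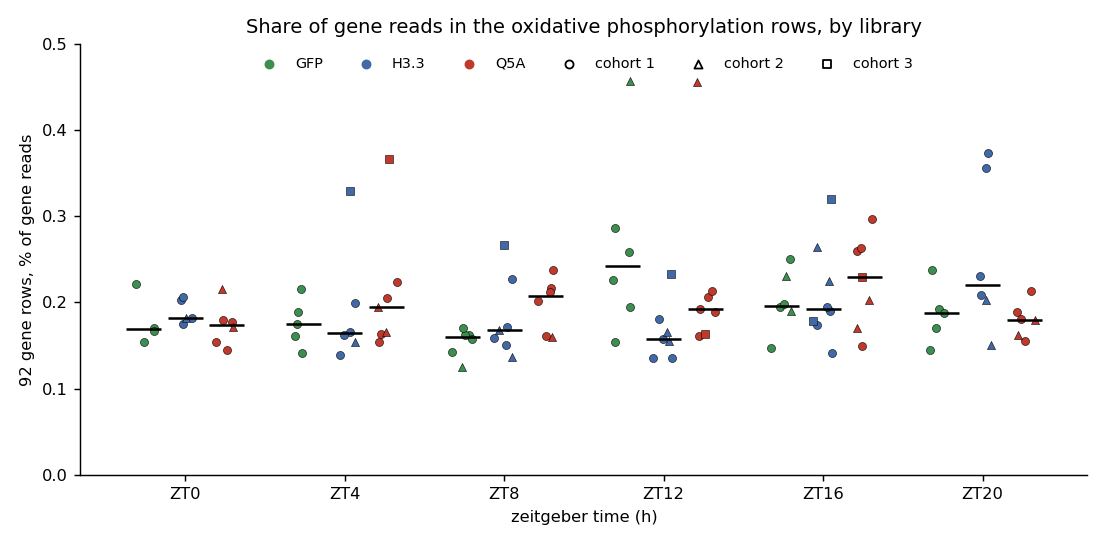
Summed share of gene reads (percent) of the 92 rows in each of the 110 libraries by ZT and virus, with the cohort as the marker and the group median as a bar. Medians lie between 0.157 and 0.242%, and single libraries reach 0.457%.

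The first question of the design is whether Q5A changed these genes against the controls. Over all ZT none of the 79 rows that passed the count filter was called (edgeR quasi-likelihood test with ZT in the model, adjusted p under 0.01), while 2 of all 13891 genes were (0.0144%). Unadjusted, 3 rows were under 0.05, or 3.80% of those tested against 5.4% of all genes, and DESeq2 also called none and had 3 under 0.05 unadjusted. The median log2 difference was 0.06 (-0.21 to 0.43), with 54 rows higher and 25 lower in Q5A, and over all genes it was 0.00.

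The 3 rows were Ndufs5, Ndufb2 and Cox7a2, all higher in Q5A and all at an adjusted p of 0.847 by edgeR. Ndufs5, an accessory subunit of complex I, had 1.93, 6.10 and 13.6 normalised reads as the lowest, median and highest of 39 Q5A libraries and 0, 4.68 and 11.7 in the 71 controls. Its log2 difference was 0.43 ± 0.15 (SE). Ndufb2, a complex I subunit opposite Braf, had 16.4, 36.8 and 75.6 against 9.66, 27.9 and 71.9, a difference of 0.29 ± 0.11. Cox7a2 had 0, 12.5 and 33.2 against 1.42, 9.21 and 33.7, a difference of 0.37 ± 0.16. In each of the 3 the ranges of the groups overlapped over nearly their whole length.

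H3.3 against GFP compares the 2 controls. None of 77 rows was called by edgeR at an adjusted p under 0.01, and of all 13264 genes 0% were. At an unadjusted p under 0.05 there was 1 row (3.25% of all genes), and DESeq2 called none and had 2 at that level. That row was Cox6a1, with 15.4, 44.8 and 150 normalised reads in 39 H3.3 libraries and 17.8, 36.8 and 81.0 in 32 GFP libraries (log2 difference 0.35 ± 0.14, adjusted p = 1). Ndufv3 and Ndufa6 of complex I came next, at 0.21 ± 0.11 and 0.19 ± 0.11. Of the 77 rows, 60 were higher in H3.3 (median 0.10), but with cohort as a covariate only 21 were (median -0.07), so the direction over these rows turned with the cohort.

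At single times, again no row was called in either comparison, by edgeR or by DESeq2, and of all genes 0% were called by edgeR at every ZT. In Q5A against controls, the rows under an unadjusted p of 0.05 were 1 of 62 at ZT0 (5.08% of all genes), 11 of 64 at ZT4 (10.5%), 8 of 59 at ZT8 (18.1%), 1 of 68 at ZT12 (2.81%), 0 of 70 at ZT16 (1.46%) and 6 of 62 at ZT20 (11.2%). DESeq2 gave 2, 9, 6, 1, 0 and 7. In H3.3 against GFP they were 1 of 54 (5.5%), 0 of 52 (1.12%), 7 of 49 (6.67%), 21 of 60 (29.4%), 1 of 61 (2.49%) and 8 of 58 (13.4%) from ZT0 to ZT20, and DESeq2 gave 0, 0, 6, 14, 1 and 8.

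The median difference of the rows changed sign from one ZT to another. Q5A against controls had a median of 0.37 at ZT4 (54 of 64 rows higher) and 0.19 at ZT8 (46 of 59), and of -0.35 at ZT20 (46 of 62 lower). H3.3 against GFP had 0.42 at ZT8 (44 of 49 higher), -0.59 at ZT12 (53 of 60 lower) and 0.41 at ZT20 (49 of 58 higher). Both comparisons use the H3.3 and GFP libraries, so their values are not independent. In cohort 1 alone the Q5A medians were 0.23, 0.39 and -0.33 at ZT4, ZT8 and ZT20, and those of H3.3 were 0.19, -0.56 and 0.61 at ZT8, ZT12 and ZT20. At ZT4 and ZT16 the sign of the small H3.3 medians (0.13 and 0.23) turned in cohort 1 (-0.08 and -0.12), and the Q5A median at ZT16 went from 0.07 to 0.37.

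**Figure D4:**
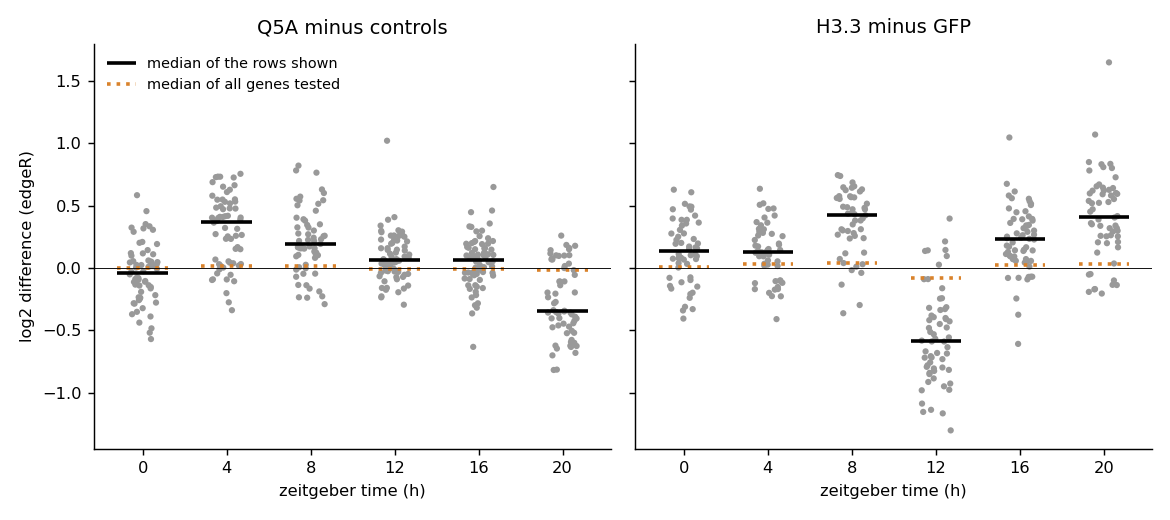
Log2 differences of the tested rows at each ZT for Q5A minus controls and H3.3 minus GFP, 1 point per gene, with the median of these rows as a black bar and that of all genes as a dotted line. The points sit mostly below 0 for H3.3 at ZT12 (median -0.59) and mostly above 0 at ZT8 and ZT20.

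The lower values in H3.3 at ZT12 were shared by all 5 complexes. The medians were -0.48 over 27 complex I subunits, -0.71 over 7 rows of III, -0.67 over 11 of IV and -0.45 over 13 of V. For complex II the median of -0.95 rests on only 2 rows. Sdha had 41.9, 101 and 207 normalised reads as the lowest, median and highest of 6 GFP libraries and 18.4, 57.3 and 87.6 in 7 H3.3 libraries (-1.15 ± 0.35, edgeR adjusted p = 0.0751). Uqcrc2, a core subunit of complex III, had 16.02, 23.7 and 49.8 against 5.65, 12.1 and 19.6 (-1.09 ± 0.33, adjusted p = 0.0755). Atp5a1 had 85.03, 156 and 318 against 66.4, 83.2 and 173 (-0.93 ± 0.30, adjusted p = 0.0806). The groups overlapped in all 3, although the GFP median was above the highest H3.3 library for Sdha and Uqcrc2. The smallest adjusted p among the 60 rows, 0.0708, was that of Ndufv2, a complex I subunit that is named because of that value (-1.30 ± 0.35).

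Several other measures moved with this difference at ZT12, and their part in it was not tested. The GFP libraries had a median of 4.17% of reads in gene rows and the H3.3 libraries 3.89%. The summed share of 5 neuronal markers was 0.0754% of gene reads in GFP (0.0474 to 0.129) and 0.0416% in H3.3 (0.0352 to 0.0598), and that of 5 astrocyte markers was 0.0236% (0.0102 to 0.0386) and 0.0108% (0.00499 to 0.0150). The 5 oligodendrocyte markers had 0.166% and 0.115%. None of these markers was at 0 in any library. Their median log2 differences were -0.69, -0.79 and -0.07, with 4, 3 and 0 of 5 rows under an unadjusted p of 0.05 and none called. The opposite rows had a median of 0.35, with 12 of 16 above 0 and 4 below, and 6 had an unadjusted p under 0.05, of which 5 were above 0 and 1, Eef1b2, opposite Ndufs1, was below (-1.10 ± 0.37, edgeR adjusted p = 0.0857). Emc8, opposite Cox4i1, had 1189, 1632 and 2361 normalised reads in GFP and 2033, 2259 and 3965 in H3.3 (0.59 ± 0.18, edgeR adjusted p = 0.0755), and Gabpa, opposite Atp5j, had 365 ± 135 and 534 ± 79.5 (0.50 ± 0.18, adjusted p = 0.0955).

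Rows with and without an opposite exon differed in size at these times. At ZT12 the median of H3.3 against GFP was -0.69 over 39 rows without one, of which 2 were above 0, and -0.33 over 20 rows with one, of which 5 were. At ZT20 the medians were 0.52 (35 of 37 above 0) and 0.25 (13 of 20), and at ZT8 0.44 (31 of 31) and 0.26 (12 of 17). For Q5A they were 0.47 (39 of 41) and 0.02 (14 of 22) at ZT4, and -0.37 (6 of 40) and -0.02 (10 of 21) at ZT20. These are descriptions of the rows, with no test between the sets.

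Atp5a1 was also the row of smallest unadjusted p in Q5A at ZT20, at 94.7 ± 14.5 normalised reads in 6 Q5A libraries and 139 ± 56.2 in 11 controls (-0.58 ± 0.23, edgeR adjusted p = 0.407). Sdha was at 55.4 ± 13.0 and 84.7 ± 38.7 there (-0.63 ± 0.27, adjusted p = 0.413). At ZT4 Ndufa7, an accessory subunit of complex I, had 12.8, 21.3 and 36.05 reads in 7 Q5A libraries and 11.1, 14.1 and 25.7 in 11 controls (0.72 ± 0.24, adjusted p = 0.416). Atp5k, subunit e of the ATP synthase, was at 25.0 ± 10.3 and 15.5 ± 5.63 (0.73 ± 0.26, adjusted p = 0.426). At ZT8 Ndufb2 lay between 36.5 and 57.5 in Q5A and between 17.9 and 71.9 in controls (0.63 ± 0.23, adjusted p = 0.206). At ZT4 Q5A libraries had a median of 4.17% of reads in gene rows and controls 3.90%, and at ZT20 3.82% and 3.96%. Neuronal and astrocyte markers had median log2 differences of 0.29 and 0.43 at ZT4, of 0.30 and 0.57 at ZT8 and of -0.46 and -0.46 at ZT20. In H3.3 against GFP their medians were 0.44 and 0.29 at ZT8 and 0.44 and 0.54 at ZT20, 2 times at which the median of the rows was above 0 as well. Of the 4 or 5 markers tested in each list, 0 to 2 had an unadjusted p under 0.05 at these times, and their part in the values of the rows was not tested.

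The second question is whether the rows were rhythmic. JTK_CYCLE, a rank test against cosine templates of 8 to 24 h, was run within each set of libraries, and a row counts as rhythmic at a p under 0.05 after adjustment over the templates. In controls 15 of 86 rows were (17.4%), against 13.7% of all 18313 genes. In GFP alone 14 were (16.3% against 11.1%), in H3.3 alone 1 (1.16% against 6.45%) and in Q5A 1 (1.16% against 4.08%). The sets differ in size (71, 32, 39 and 39 libraries), and a call in one and not in another was not tested as a difference here. After adjustment over all genes as well (q under 0.05), 1 row remained in controls, against 1.88% of all genes, and 0 in GFP, H3.3 and Q5A, against 0.175, 0.00546 and 0.00546%. These counts depended on the libraries used. In cohort 1 alone 12 rows were rhythmic in controls (12% of all genes), 8 in GFP (7.16%), 10 in H3.3 (8.62%) and 4 in Q5A (7.5%). Without the libraries of cohort 1 numbered 1, the controls had 5 rhythmic rows (9.44% of all genes). Without those numbered 2, 3 or 4 they had 8 (10.7, 9.91 and 8.81% of all genes). GFP had 9, 6 and 4 without those numbered 1, 2 and 4 (6.61, 7.19 and 8.40%) and 17 without those numbered 3 (14.3%). Leaving out 1 number at a time gave 0 to 3 rows in H3.3 (3.81 to 6.45% of all genes) and 1 to 2 in Q5A (2.59 to 3.66%).

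A 24 h cosinor in edgeR, with adjustment over all genes, called 9 of 77 rows in controls (11% of all genes) and 3 of 75 in GFP (5.7%). It called none of 71 rows in H3.3 (0.783%) and none of 71 in Q5A (0.239%), with 14 and 5 under an unadjusted p of 0.05. When the share of reads in gene rows was added to the model, 2 rows were called in controls (7.96% of all genes), Ndufv3 among them, and 4 in GFP (3.46%). None was called in H3.3 (0.0704%) or Q5A (0.248%) then, with 5 and 7 unadjusted.

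Of the 15 rhythmic rows in controls, 8 had a period of 24 h with a peak at ZT20, late in the active phase, a pattern shown by 349 of the 2511 rhythmic genes. They were Cox6b1 (JTK adjusted p = 0.00237), Atp5b (0.00621), Cox6a1 (0.00648), Ndufb10 (0.0113), Ndufa9 (0.0225), Ndufa13 (0.0294), Ndufb8 (0.0317) and Cox7b (0.0328). Cox6b1 had medians of 30.3, 29.4, 24.4, 37.7, 38.6 and 45.0 normalised reads from ZT0 to ZT20, and Atp5b 166, 146, 136, 159, 178 and 192. Both were lowest at ZT8 and highest at ZT20 in the pooled controls, as was the summed share of the 92 rows (0.162 and 0.203%). GFP and H3.3 differed when taken apart. In GFP the median share was lowest at ZT8 (0.160%) and highest at ZT12 (0.242%), with 0.187% at ZT20. In H3.3 it was lowest at ZT12 (0.157%) and highest at ZT20 (0.220%). Neither Cox6b1 nor Atp5b was rhythmic in GFP alone or in H3.3 alone. Within ZT20 the control libraries still ranged from 25.6 to 81.0 for Cox6b1 and from 133 to 390 for Atp5b. In Q5A neither was rhythmic, with medians of 29.7 to 51.1 reads for Cox6b1 and 150 to 253 for Atp5b.

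Others had other phases. Ndufs1 (JTK adjusted p = 0.00905), the large iron-sulfur subunit of complex I, peaked at ZT8 with a period of 24 h, where its mean was 77.2 ± 14.6 (SD, n = 13) against 62.8 ± 7.87 (n = 11) at ZT20. Ndufv3 (0.0269) peaked at ZT12 and Uqcrq (0.0316) at ZT16, both at 24 h. Atp5k (0.0107) and Cox4i1 (0.0497) had a period of 20 h and a peak at ZT16, and Ndufs3 (0.0155) one of 16 h and a peak at ZT8. Of the 15, 6 were also among the 14 in GFP alone, whose libraries are part of the controls. Among them, Cox6a1, Ndufb8, Ndufs1 and Uqcrq had the same period and peak in GFP, whereas Ndufs3 had 20 h and a peak at ZT4 there. The overlap over all genes is not given here, so this one is not read as a result about these rows. Ndufa7 was rhythmic in GFP alone (JTK adjusted p = 0.00426, q = 0.191, 24 h, peak at ZT16). The single row in H3.3 was Cox6c (0.00638, 24 h, peak at ZT8), with means of 185 ± 33.6 at ZT8, 186 ± 15.2 at ZT12 and 137 ± 26.5 at ZT20.

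Among the opposite rows, Tssk6, opposite Ndufa13, was rhythmic in controls (JTK adjusted p = 0.000748) with a period of 20 h and a peak at ZT8, and Tmco6, opposite Ndufa2, had 20 h and ZT16 (0.00755).

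Cox6a2 was the only rhythmic row in Q5A (JTK adjusted p = 5.73e-05, q = 0.105), with a period of 16 h and a peak at ZT12. Its normalised reads were 8.85 to 21.5 in the 7 Q5A libraries at ZT12, against 0 to 5.15 at ZT4 and 1.03 to 5.00 at ZT8. The row was picked by this test and the times by their values, so the gap between them is not separate evidence. At ZT16 the Q5A libraries of cohort 1 were at 10.1 to 20.1 and those of cohort 2 at 4.19 to 4.76. The means from ZT0 to ZT20 were 8.01 ± 4.03, 2.46 ± 1.90, 2.57 ± 1.60, 13.9 ± 5.33, 9.38 ± 5.59 and 5.13 ± 3.46. In controls they lay between 5.39 ± 3.66 and 7.49 ± 3.54. At ZT12 Q5A minus controls was 1.02 ± 0.40 (edgeR adjusted p = 1.00), with controls at 0 to 14.4. With a mean of 6.73 reads per library, this row rests on few counts.

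**Figure D5:**
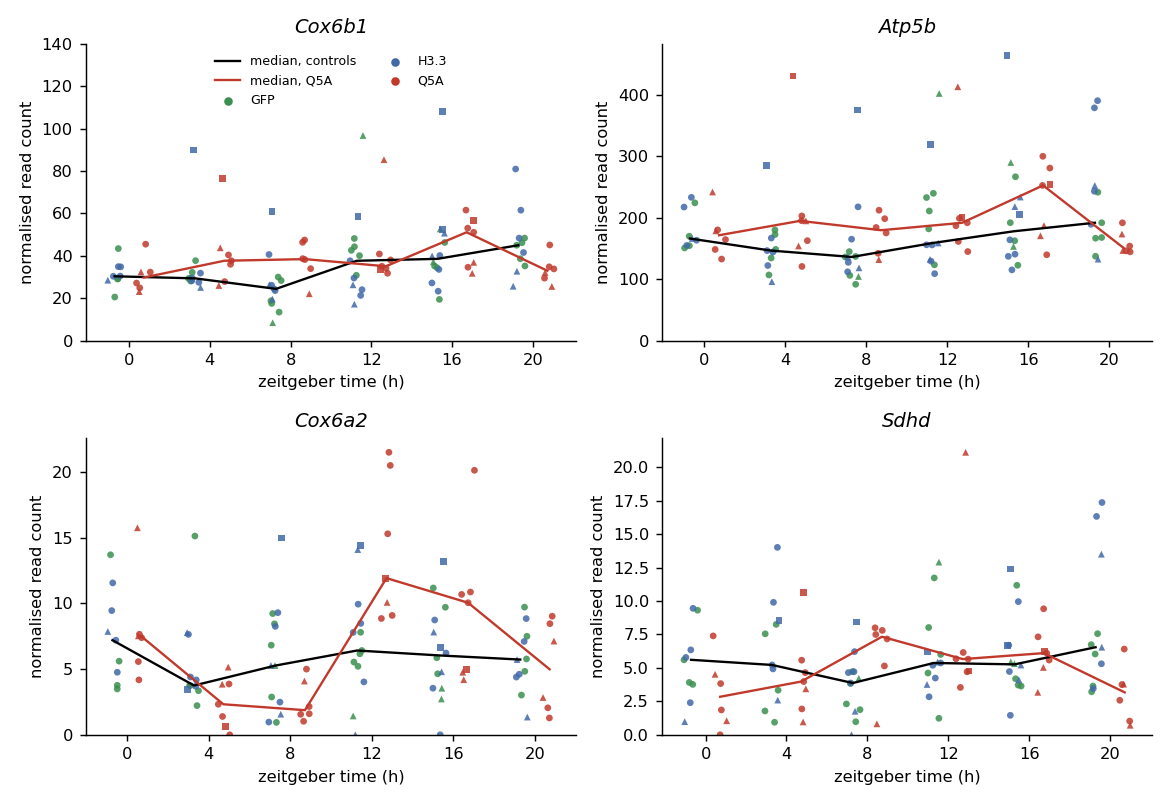
Normalised reads of Cox6b1, Atp5b, Cox6a2 and Sdhd in each library by ZT, controls and Q5A, with the cohort as the marker and lines through the medians. Cox6b1 and Atp5b are highest at ZT20 in controls (medians 45.0 and 192), and Cox6a2 in Q5A is highest at ZT12 (8.85 to 21.5).

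Whether the 24 h rhythm itself differed between Q5A and controls was tested with an interaction of virus and a 24 h cosinor. None of 79 rows was called by edgeR (adjusted p under 0.05; 0.122% of all 13891 genes), with 11 under an unadjusted p of 0.05 (14.4% of all genes), and DESeq2 called none and had 10. Among the smallest adjusted p were those of Sdhd, the membrane anchor of complex II (0.228), Ndufa7 (0.251) and Cox6a2 (0.287). Sdhd had means of 3.11, 4.45, 6.07, 7.37, 6.12 and 3.04 normalised reads in Q5A from ZT0 to ZT20 and of 5.28, 6.10, 3.66, 5.96, 6.05 and 8.15 in controls, which is few reads per library. In cohort 1 alone 2 of 73 rows were called, Cox6a2 (adjusted p = 0.0140) among them, a smaller share than the 6.15% of all 12640 genes called there. Between H3.3 and GFP none of 77 rows was called by edgeR (0.0151% of all genes), with 10 under an unadjusted p of 0.05 (13.3% of all genes). DESeq2 called none there and had 9, and the smallest adjusted p by edgeR was 0.305 (Uqcrc2).

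The rest of the pathway gave few calls. The 13 subunits encoded by the mitochondrial genome were listed at 0 in all 110 libraries. Of 42 further nuclear rows (cytochrome c, cytochrome c1 and assembly factors of complexes I to V), none of the 30 tested was called by edgeR in Q5A against controls (2 unadjusted, beside 5.4% of all genes) and none of 29 in H3.3 against GFP (1 unadjusted, beside 3.25%). In controls 4 of 37 were rhythmic, beside 13.7% of all genes. They were Ecsit (JTK adjusted p = 3.79e-05, q = 0.0103, 24 h, peak at ZT8), Bcs1l (0.000848, q = 0.0481, 24 h, peak at ZT8), Sdhaf2 (0.000979, 24 h, peak at ZT20) and Pet100 (0.00380, 20 h, peak at ZT0). Ecsit, a complex I assembly factor, was the only row of the 37 that was rhythmic in Q5A (JTK adjusted p = 0.0265), beside 4.08% of all genes. Its period and peak were the same there, but the call did not hold after adjustment over all genes. Bcs1l, which inserts the iron-sulfur protein of complex III, was not rhythmic in Q5A. A call in one set and not in another was not tested as a difference. Of 8 regulators of the pathway, none was called by edgeR in either comparison (2 and 0 unadjusted), and 1, Gabpb1, was rhythmic in controls (0.0243, 16 h, peak at ZT8). Their rows ranged from a mean of 5.33 reads for Tfam, which activates mitochondrial transcription, to 477 for Gabpa.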

How the data were processed

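TMN tissue of single animals was sequenced by the authors with the Illumina Stranded mRNA Prep kit. Reads were demultiplexed with bcl2fastq and aligned to GRCm38 with STAR 2.7.11b. The deposited values are whole-number counts per gene name from htseq-count (HTSeq 2.0.5, exons, union mode, stranded=yes, alignment quality of at least 10, Ensembl 93), and DESeq2 1.44.0 is named for the authors' normalisation. The 5 summary rows of each file were kept out of library sizes and tests, and 3.49 to 5.64% of the reads placed uniquely were in gene rows. A further 18 files that name no sample in the labels were not used. Each library's group, cohort and replicate number came from the labels. Among 296 pairs of libraries that share a group, compared over genes with at least 10 reads, 1 pair had identical counts and was merged by its mean.

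Counts were tested in R 4.3.3 with edgeR 4.0.16 (quasi-likelihood, filterByExpr with a minimum count of 10 and total of 15, TMM factors, ZT in the model over all ZT), with Benjamini-Hochberg adjustment over all genes tested and a threshold of 0.01, or 0.05 for rhythm differences (24 h cosinor). Normalised counts were counts divided by DESeq2 size factors. Rhythms were tested with JTK (20 templates, periods of 8 to 24 h, genes with a mean of at least 1 read). Alternatives were DESeq2 1.42.0, other size factors and filters, cohort as a covariate, cohort 1 alone, a replicate block, each replicate number left out and 4 libraries left out. H3.3 against GFP rhythm differences, the rows of opposite genes and the cosinor with the share of reads in gene rows were chosen after seeing the data. Scripts were tested on simulated data. Positions were taken from GENCODE M21 on GRCm38 (28499 of 54087 rows matched, with 64.8% of gene reads; 91 of the 92 genes), overlaps were found with bedtools 2.31.1, and promoter windows came from RefSeq (GRCm38.p6).

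The genes named were the 10 with the highest mean count, those past the threshold of each test over all ZT (at most 10) and in any case the 3 of smallest p, the tissue forms of complex IV, the highest per kilobase in each complex, and those with an opposite exon. The values of 1 of the 92 genes are not reported here, and it counts only in totals and medians. Uqcrq, Ndufb8, Atp5s and Ndufv2 were named after their values were seen. The gene sets, gene lists and tests were chosen with earlier results of these data known. P-values measure the spread between libraries of 1 animal each, which holds counting error as well as differences between animals and cohorts.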

Additional observations from a re-analysis of the deposited data

Results flagged for a closer look

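In 19 of 90 checks of a group of libraries at 1 ZT, a single library stood far from the rest of its group. The gap to its neighbour was larger, as a share of the group's range, than Dixon's 95% limit allows. Chance alone reaches that limit in about 1 of 20 groups of normally distributed values. The checks shared libraries and rows, so the count of flags cannot be set against that rate. The quantities checked were the summed share of the 92 rows and the normalised reads of Cox6b1, Atp5b, Cox6a2 and Sdhd, and in each case below the library was the highest of its group. Values are given with the median of the group.

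Libraries of cohort 3 were the source of 10 of them. The Q5A library of that cohort at ZT4 had 0.367% of its gene reads in the 92 rows (median 0.195), 76.4 reads of Cox6b1 (37.7) and 431 of Atp5b (195). The H3.3 library at ZT4 had 0.330% (0.164), 89.9 reads of Cox6b1 (28.9) and 285 of Atp5b (145). In H3.3 the Atp5b row was at 375 at ZT8 (136), 319 at ZT12 (156) and 464 at ZT16 (185), and Cox6b1 was at 108 at ZT16 (40.1).

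In cohort 2, the first Q5A library at ZT12 had a share of 0.456% (median 0.192), 85.4 reads of Cox6b1 (35.1), 413 of Atp5b (192) and 21.1 of Sdhd (5.66), and the first GFP library at ZT12 had 96.8 of Cox6b1 (43.4). Cox6a2 was at 15.8 in a cohort 2 library of Q5A at ZT0 (7.46). The others were libraries of cohort 1. Cox6a2 was at 15.1 in GFP at ZT4 (3.75) and 20.1 in Q5A at ZT16 (10.1), and Sdhd was at 11.2 in GFP at ZT16 (4.75).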

How the results depend on the processing

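Over all ZT, no row of these genes was called in Q5A against controls or in H3.3 against GFP under any alternative, and all 587 and 545 recomputed values kept their side of the threshold. In cohort 1 alone 2 rows were called in the rhythm difference, beside 6.15% of all genes. At a single ZT 1 row was called there in Q5A against controls. The share of all genes called in that fit is not given here, so this call is not read as a result about these rows. The count of rhythmic rows moved more. In controls it was 1 by q, 9 with the cosinor, 2 with the cosinor and the share of reads in gene rows, and 5 to 14 without 1 replicate number. In Q5A it was 0 by q, 4 in cohort 1, 2 without the 4 libraries that stood apart in earlier results, 0 with either cosinor and 1 to 2 without 1 replicate number. In GFP it was 0 by q, 8 in cohort 1, 3 and 4 with the cosinors and 4 to 17 without 1 replicate number. In H3.3 it was 0 by q, 10 in cohort 1, 2 without the 4 libraries, 0 with either cosinor and 0 to 3 without 1 replicate number. The share of all genes that were rhythmic moved too. Without 1 replicate number it was 8.81 to 14.1% in controls and 2.59 to 3.66% in Q5A. For GFP it was then 6.61 to 14.3% and for H3.3 3.81 to 6.45%. Without the 4 libraries it was 3.76% in Q5A and 6.45% in H3.3. The causes were not tested. Of the 100 recomputed values for single rows rhythmic in controls, 68 kept the call and 32 lost it, and no value reversed.

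The replicate block (cohort and number) gave 0 calls, as did the fit without it. The labels do not say that a number marks a shared litter or day, so the numbers were not taken as pairing the libraries. Over 91 pairs of libraries with the same cohort and number the median correlation of deviations was 0.1003, with 46 pairs above 0.1. Over 585 other pairs it was -0.0266, so pairs that share a number were somewhat more alike. Whether that likeness reflects a shared origin was not tested.

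Depth limits the low rows, of which 6 had a mean under 1 read. Because the counting kept the strand opposite to most mRNA reads, a difference in a row need not be one in the gene's mRNA.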
